A study of Mus musculus with 6 samples.

Results

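Transcripts of 40 genes for the synthesis, salvage and interconversion of purines and pyrimidines and for the folate cycle were compared in mast cells isolated from mouse lymph nodes. The genes were taken by name from these pathways and not by a threshold on their values, but the choice was made with earlier results of these data known. All 40 were found among the 17890 genes of the deposited count table, and all 40 passed the filter on low counts. The libraries labelled mLN (3) came from nodes with tumour metastasis and those labelled uLN (3) from uninvolved nodes. Total RNA went into mRNA libraries for the DNBSEQ platform. The labels used here name no strain, genotype, age, tumour or treatment, nor the way in which the mast cells were isolated. They do not say whether replicates came from separate or pooled animals, so a p-value sets a difference against the spread of 3 libraries, and that spread may be a technical one. Each library held between 17643916 and 17799420 estimated counts.

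As background, cells build purine rings stepwise on phosphoribosyl pyrophosphate (PRPP) until inosine monophosphate (IMP) is made, and IMP is then turned into AMP or GMP. The pyrimidine ring is closed before it is joined to PRPP, which gives UMP and from it CTP. Salvage enzymes rebuild nucleotides from free bases and nucleosides, and ribonucleotide reductase turns ribonucleotides into the deoxynucleotides (dNTPs) of DNA. The folate cycle supplies carbon units for purine rings and for thymidylate. Mast cells of tissues are long-lived and divide seldom, while proliferating cells are known for high de novo synthesis.

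The libraries carried the defining transcripts of mast cells. The summed level of 10 mast cell markers was 39540.0 to 42220.0 CPM in mLN and 41230.0 to 43030.0 CPM in uLN, where CPM is the count scaled to library size with edgeR's TMM factors, and none of the 10 was at 0 in all libraries. Single markers moved, as 3 of the 10 rose and 5 fell. Kit, the receptor for stem cell factor, averaged 3139 ± 46.7 CPM in mLN and 7756 ± 191 CPM in uLN (SD, n = 3 each), a 2.47-fold fall, and Fcer1a, a chain of the IgE receptor, fell 1.502-fold. The proteases Mcpt4, Tpsb2 and Cma1 rose 4.03-fold, 2.06-fold and 2.01-fold. Of the markers of other cells, 5 T cell genes summed to 2.57 to 3.56 CPM in mLN and 4.48 to 5.22 CPM in uLN, and 4 B cell genes to less than 1 CPM in each library. The 8 macrophage genes summed to 212 to 244 CPM in mLN and 133 to 180.1 CPM in uLN, with 2 members called higher and 5 lower in mLN. The 6 dendritic cell genes summed to 15.2 to 17.2 CPM in mLN and 9.17 to 10.5 CPM in uLN, without overlap, and 1 of them, Itgax, rose. The 5 melanocyte genes summed to 7.06 to 15.7 CPM in mLN, highest in replicate 1, and 5.50 to 6.94 CPM in uLN, and 1 of them, Pmel, rose. The 8 keratinocyte and epithelial genes reached 158 CPM in mLN replicate 1, against 16.2 and 35.1 CPM in the other mLN libraries and 8.04 to 17.3 CPM in uLN. The 6 fibroblast genes reached 112 CPM there, against 12.4 and 25.8 CPM in the other mLN libraries and 3.73 to 13.1 CPM in uLN. In each of these 2 lists 3 genes were called higher in mLN and 0 lower, and mLN replicate 3 also stood above each uLN library. The 6 endothelial genes summed to 588 to 636 CPM in mLN and 581 to 604.5 CPM in uLN, most of it Pecam1, with 0 called. The 6 neutrophil genes summed to 5.81 to 7.51 CPM in mLN and 6.08 to 7.45 CPM in uLN, with 0 called. Without mLN replicate 1, the calls of Ppat and Tyms were lost and the other 28 calls among the 40 genes were kept. The part of other cells in the results was not tested beyond this, and in bulk samples fewer cells of a type and less RNA per cell cannot be told apart.

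Of the 40 genes, 16 rose and 14 fell in mLN and 10 were not called (edgeR, quasi-likelihood, Benjamini-Hochberg adjusted p under 0.05 over all 12706 tested genes). That is 75.0% of the 40, where 67.4% of all tested genes were called, so the number of calls is near the background. Among all tested genes 33.2% rose and 34.2% fell. With a fold of at least 1.5 also asked, 10 of the 40 genes rose and 4 fell, where 17.1% and 15.3% of all tested genes did (32.5% either way). The spread of all genes was small, with a coefficient of variation of 9.12% in mLN and 2.94% in uLN. When it was set to 0.2 for every gene, a stricter test, 10 of the 40 genes rose and 3 fell, where 16.9% and 15.1% of all tested genes did (32.0% either way). The median log2 fold change was 0.01 for the 40 genes and -0.01 for all tested genes, and the median size of change was 0.34 and 0.40. The groups did not overlap for 31 of the 40 genes, 17 higher and 14 lower in mLN, and for 72.9% of all tested genes (35.6% higher and 37.3% lower). The 40 genes as a whole therefore did not move one way, and their median size of change was below that of all tested genes. Changes at single steps are described below gene by gene. The summed level of all 40 genes was 2099, 2108 and 2218 CPM in mLN against 1659, 1646 and 1659.6 CPM in uLN, and Uck1 had the highest mean CPM of the 40 in both groups. The largest rises belonged to the reductase subunit Rrm2, the isozymes Adssl1 and Impdh1, the kinases Dck and Uck1 and the deaminase Ada, and the largest falls to the kinase Nme2 and the early pyrimidine enzymes Dhodh, Cad and Umps. Rrm2, which is counted among the rises above, had few reads in uLN and passed the filter on low counts through its mLN libraries. The size of its rise is therefore known only roughly.

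**Figure D1:**
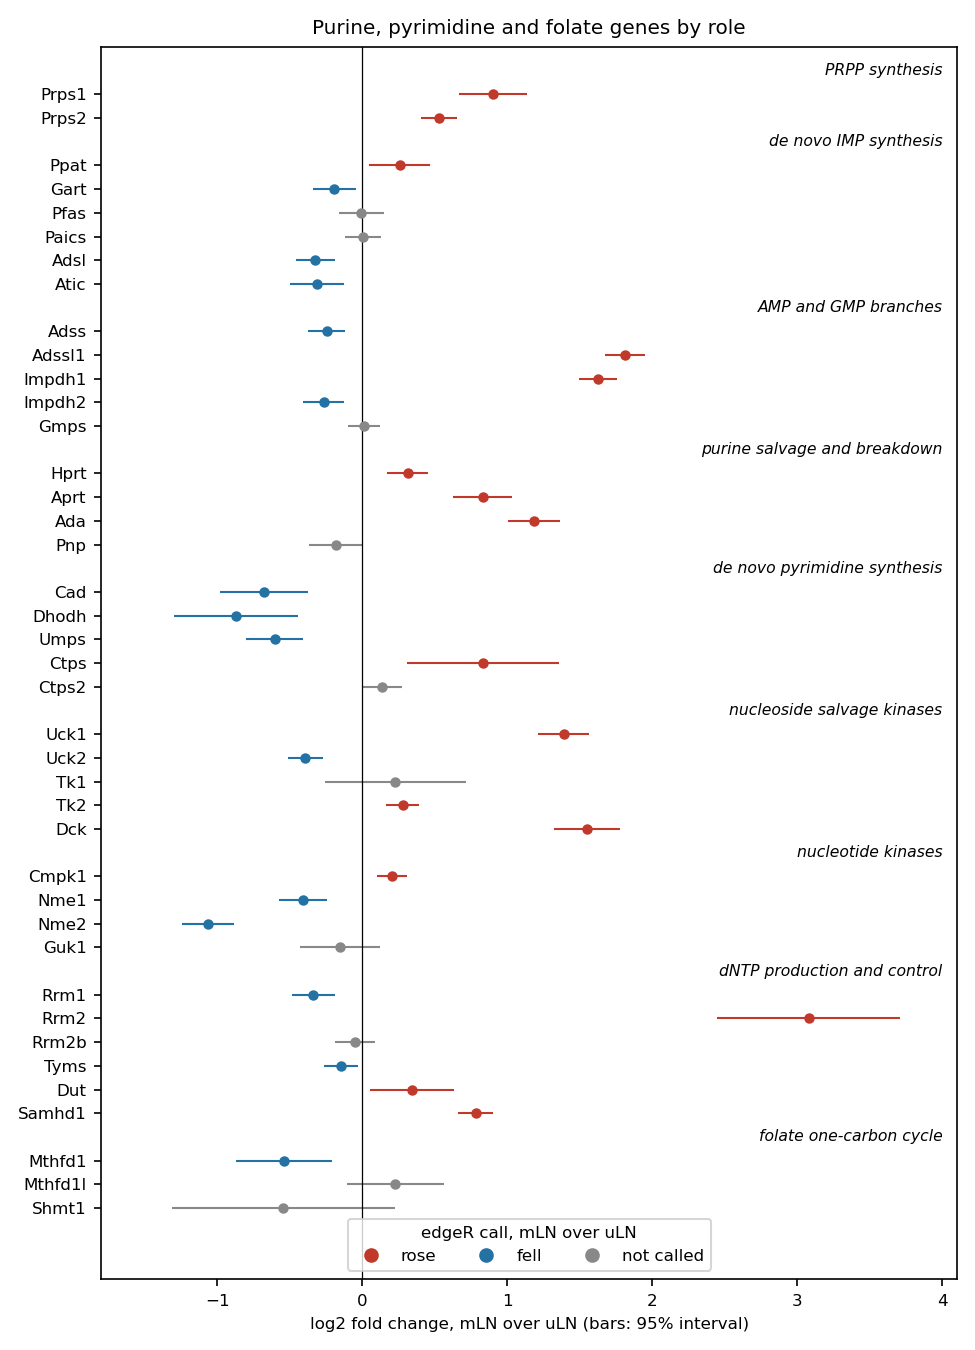
Log2 fold change of each of the 40 genes, mLN over uLN, grouped by role, with 95% intervals from edgeR as bars. Points are coloured by call: 16 genes rose, 14 fell and 10 were not called.

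At 3 steps that are served by a pair of isozymes, one isozyme rose and its partner fell. IMP dehydrogenase makes the first committed step to GMP. Its isozyme Impdh1 (gene ID 23917, chromosome 6 from 29200436 to 29216364 in GRCm38.p6) had 134, 134 and 149 CPM in mLN replicates 1, 2 and 3, against 47.0, 44.1 and 44.0 CPM in uLN. All mLN libraries lay far above all uLN libraries, a 3.08-fold rise with a log2 change of 1.62 ± 0.06 (SE) and an adjusted p of 1.14e-08. The isozyme Impdh2 (gene ID 23918, chromosome 9 from 108560436 to 108565577), known as the form that proliferating cells induce, had 27.3, 28.6 and 26.4 CPM in mLN and 32.3, 34.2 and 32.5 CPM in uLN. It fell a little, without overlap, by 0.27 on the log2 scale (adjusted p = 0.00328). Impdh1 held 83.4% ± 1.31 of the pair's CPM in mLN and 57.7% ± 1.48 in uLN (SD, n = 3 each). The sum of the pair was 166 ± 7.75 CPM in mLN and 78.0 ± 1.42 CPM in uLN (SD, n = 3 each).

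Adenylosuccinate synthase makes the matching step from IMP towards AMP. Adssl1, the form known from muscle and its purine nucleotide cycle (chromosome 12, 112620047 to 112641355), had 60.6, 56.3 and 59.1 CPM in mLN against 17.1, 16.9 and 16.2 CPM in uLN. That is a 3.501-fold rise, with a log2 change of 1.81 ± 0.06 (SE) and an adjusted p of 7.38e-09, and the spread within each group was small. Adss, the widely expressed form, had 43.8, 46.5 and 42.9 CPM in mLN and 51.9, 51.4 and 54.9 CPM in uLN, a fall of 0.25 on the log2 scale (adjusted p = 0.00269). Adss held 43.1% ± 1.86 of the pair's CPM in mLN and 75.9% ± 1.15 in uLN (SD, n = 3 each). Per kilobase of transcript, Adssl1 stood above Adss in mLN (32.3 and 16.0 CPM per kb) and below it in uLN (9.21 and 19.0 CPM per kb), so the order of the isozymes turned round. The muscle markers summed to 1.89 to 5.86 CPM in mLN and 1.84 to 2.98 CPM in uLN, highest in mLN replicate 1. None of the 5 muscle genes was called, and their part in the level of Adssl1 was not tested.

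The third such pair salvages uridine and cytidine. Uck1 (chromosome 2, 32255002 to 32260105), a uridine-cytidine kinase, was the most abundant of the 40 transcripts per kilobase in both groups, at 208 CPM per kb in mLN and 79.5 CPM per kb in uLN. Its level was 388, 385 and 479 CPM in mLN against 162, 156 and 159.7 CPM in uLN, highest in mLN replicate 3. The rise was 2.62-fold (log2 change of 1.39 ± 0.08 (SE), adjusted p = 1.65e-07). Uck2, the isozyme found raised in many tumours, had 116, 109 and 101 CPM in mLN and 145, 144 and 139 CPM in uLN and fell by 0.39 on the log2 scale (adjusted p = 0.000101). Uck1 held 79.2% ± 2.94 of the pair's CPM in mLN and 52.8% ± 0.748 in uLN (SD, n = 3 each). The log2 ratio of Uck1 to Uck2 differed between mLN and uLN by 1.77, that of Impdh1 to Impdh2 by 1.89 and that of Adss to Adssl1 by -2.05. Each of these 3 ratios had no overlap between groups, with p = 0.1 in a two-sided exact permutation test over libraries, the smallest that 3 against 3 allows (adjusted over 8 pairs, 0.133). The same p held for the ratios of Rrm2 to Rrm2b, Nme1 to Nme2 and Prps1 to Prps2, which differed by 3.08, 0.66 and 0.37. Rrm2 had few reads in uLN, so the size of its ratio difference is known only roughly. For Ctps to Ctps2 the difference was 0.65 (exact p = 0.2) and for Tk1 to Tk2 -0.04 (exact p = 0.9). Of the 50-base stretches of the longest Uck1 transcript, 24.5% also occur in transcripts of other genes, nearly all in a processed pseudogene. For Impdh2 the share is 73.9%, all in a pseudogene of Impdh2, and for Impdh1 and both Adss forms it is 0%. The calls of the falling partners Impdh2, Adss and Uck2 were lost in both stricter tests, with the coefficient of variation set to 0.2 and against a 1.5-fold change, while those of Impdh1, Adssl1 and Uck1 were kept.

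**Figure D2:**
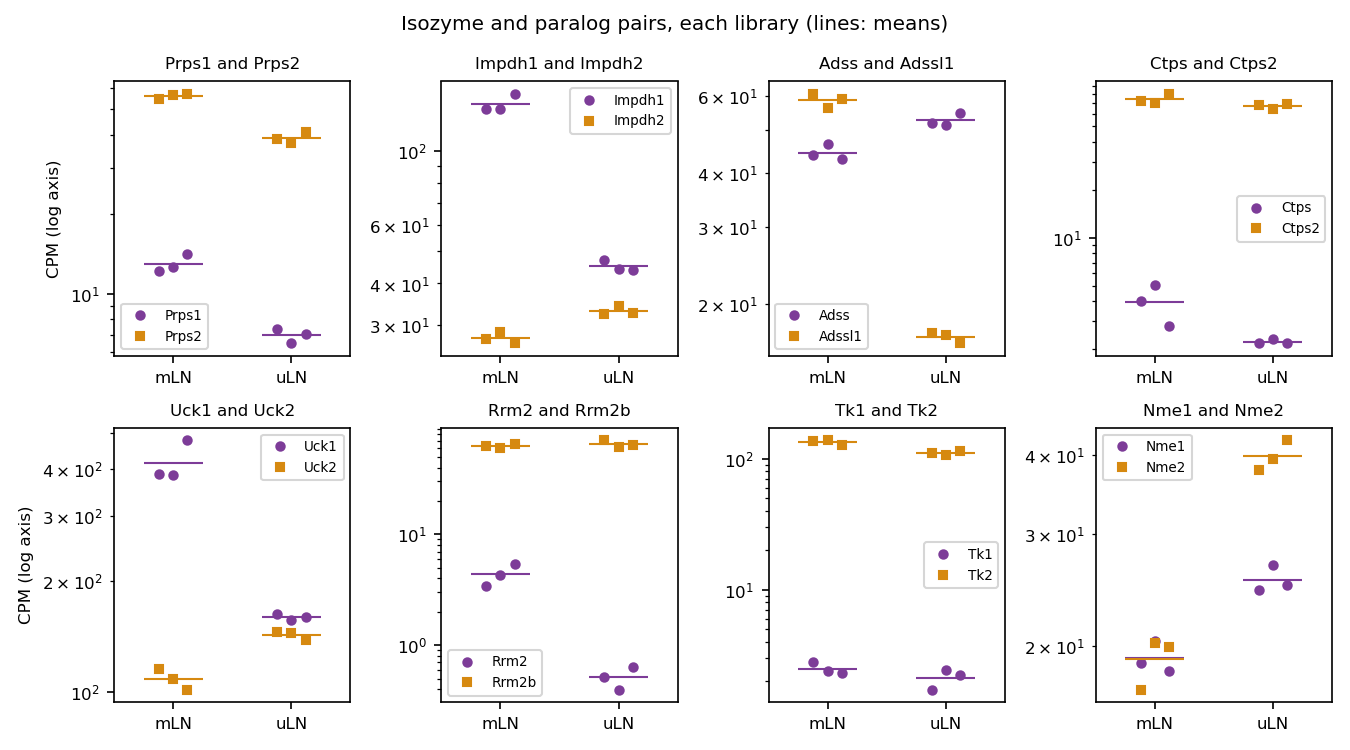
CPM on a log axis of both members of 8 isozyme or paralog pairs in each mLN and uLN library, with lines at the group means. Adss and Adssl1 change places between the groups, and Impdh1 and Uck1 move away from their partners in mLN. The ratios, which are not drawn, overlap between groups for Tk1 to Tk2 and for Ctps to Ctps2.

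The supply of PRPP and the chain from PRPP to IMP did not move together. Of the PRPP synthetases, Prps2 had 54.7, 56.3 and 57.0 CPM in mLN against 38.4, 37.3 and 40.9 CPM in uLN, a 1.44-fold rise (adjusted p = 1.44e-05). Prps1 had 12.2, 12.7 and 14.1 CPM in mLN against 7.34, 6.49 and 7.07 CPM in uLN, a 1.87-fold rise (adjusted p = 2.73e-05). Prps1l3, a related gene in the same table whose transcripts hold 10.1% of the 50-base stretches of Prps1, had 25.9, 23.4 and 20.4 CPM in mLN and 33.7, 32.2 and 31.8 CPM in uLN, and it fell by 0.49 on the log2 scale (adjusted p = 0.000512). With the counts of both summed, an alternative chosen after seeing the data, the level was 36.2 ± 1.79 CPM in mLN and 39.5 ± 1.28 CPM in uLN (SD, n = 3 each). The log2 change was then -0.12 and not called (edgeR adjusted p = 0.0957). Prps1 counts were not whole numbers in any library, nor were those of Prps2. How reads common to Prps1 and Prps1l3 were counted is not stated, and the part of such reads in either change was not tested.

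In the chain of 6 enzymes that build IMP, 1 rose, 3 fell and 2 were not called, all by small amounts. Of all tested genes 33.2% rose and 34.2% fell, 67.4% either way, so the number of calls in the chain is near the background. Ppat, which commits PRPP to purines, had 14.0, 13.3 and 15.8 CPM in mLN against 11.7, 12.8 and 11.5 CPM in uLN, a rise of 0.26 on the log2 scale whose adjusted p of 0.034 is close to the threshold. Its call was lost in DESeq2, with no expression filter, and without each of mLN replicates 1 and 3 and uLN replicates 1 and 3. Paics, the most abundant of the chain at 89.0 ± 5.89 CPM in mLN and 88.8 ± 2.06 CPM in uLN (SD, n = 3 each), had a log2 change of 0.0019 with a 95% interval of -0.12 to 0.13. Pfas, a middle step of the chain, was likewise not called, with an interval of -0.16 to 0.15. Adsl, which acts in the chain and again on the way to AMP, fell by 0.32 (adjusted p = 0.000771), Atic, which closes the ring with a folate-borne carbon, by 0.31 (adjusted p = 0.00733) and Gart, an enzyme of several steps, by 0.19 (adjusted p = 0.0234) on the log2 scale. The summed CPM of the chain was 228, 230.1 and 231 in mLN and 243, 246 and 245 in uLN. Gart shares 19.7% of its exon bases with an annotated antisense RNA, and the sources used here do not state whether counting used strand. Its call was lost in DESeq2, with total counts only, and without mLN replicate 2 or uLN replicates 2 or 3. Gmps, which finishes GMP, was not called at 60.4 ± 1.23 CPM in mLN and 60.02 ± 2.10 CPM in uLN (SD, n = 3 each).

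Ppat and Paics lie head to head on chromosome 5 (76913249 to 76951578 and 76951302 to 76967509 in GRCm38.p6). Their exons overlap on opposite strands, over 6.15% of the exon bases of Ppat and 8.67% of those of Paics. Promoter sequence was searched for the E-box CACGTG, which MYC and related factors are known to bind, and for the E2F sites TTTCCCGC and TTTGGCGC, on either strand. The window, from RefSeq with build GRCm38.p6, ran from 250 bases before each start site to 50 after it and was given for 37 of the 40 genes. The E-box occurred in 5 of these (13.5%) and in 10.3% of the 13991 genes of the table with a window. TTTCCCGC occurred in 2 (5.41%), against 1.97% of genes, and TTTGGCGC in 0, against 0.908% of genes. The 5 genes with an E-box were Paics, Atic, Impdh2, Nme1 and Tyms, of which 4 fell in mLN and Paics was not called. Of the 1172 tested genes with an E-box, 37.5% fell and 33.8% rose. Those with TTTCCCGC were Ppat and Prps2, and both rose, where 36.2% of the 235 tested genes with that site rose and 37.9% fell. The calls of Tyms and Ppat were lost under several settings. So few genes allow no reading of either motif. Such matches describe letters in a window and do not show that a factor binds. Shown here in lower case, with the motif in capitals, are the neighbours Ppat, which holds the E2F site at a pair of places, at chr5:76951529-76951828 (minus strand), and Paics, at chr5:76951052-76951351 (plus strand). Prps2, at chrX:167382700-167382999 (minus strand), also holds TTTCCCGC. Atic, at chr1:71556906-71557205 (plus strand), Impdh2, at chr9:108560186-108560485 (plus strand), and Nme1, at chr11:93968223-93968522 (minus strand), are genes with an E-box that fell. For genes on the minus strand the sequence is that of the minus strand, and GCGGGAAA is TTTCCCGC read on the other strand.
Ppat: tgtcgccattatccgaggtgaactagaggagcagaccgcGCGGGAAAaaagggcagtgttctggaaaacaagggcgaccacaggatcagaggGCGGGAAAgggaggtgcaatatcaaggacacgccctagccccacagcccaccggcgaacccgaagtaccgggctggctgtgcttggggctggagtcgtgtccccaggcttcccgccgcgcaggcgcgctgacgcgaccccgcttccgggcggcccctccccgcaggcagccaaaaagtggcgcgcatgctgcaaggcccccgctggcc
Paics: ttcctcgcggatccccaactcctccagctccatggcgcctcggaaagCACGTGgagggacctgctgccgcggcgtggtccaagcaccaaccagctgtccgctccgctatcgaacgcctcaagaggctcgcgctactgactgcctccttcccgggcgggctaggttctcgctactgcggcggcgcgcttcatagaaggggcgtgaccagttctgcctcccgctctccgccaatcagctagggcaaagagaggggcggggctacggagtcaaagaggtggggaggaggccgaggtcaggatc
Prps2: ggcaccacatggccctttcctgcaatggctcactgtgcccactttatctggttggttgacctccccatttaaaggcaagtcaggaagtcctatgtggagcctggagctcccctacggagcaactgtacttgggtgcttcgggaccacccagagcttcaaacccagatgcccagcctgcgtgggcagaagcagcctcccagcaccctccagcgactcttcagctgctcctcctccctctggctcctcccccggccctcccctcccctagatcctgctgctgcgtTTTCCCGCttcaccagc
Atic: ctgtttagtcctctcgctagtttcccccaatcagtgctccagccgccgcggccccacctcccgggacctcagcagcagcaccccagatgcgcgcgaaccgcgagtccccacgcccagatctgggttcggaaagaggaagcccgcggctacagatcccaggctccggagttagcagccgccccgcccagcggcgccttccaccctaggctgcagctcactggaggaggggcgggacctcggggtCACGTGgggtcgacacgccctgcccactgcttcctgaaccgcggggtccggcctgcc
Impdh2: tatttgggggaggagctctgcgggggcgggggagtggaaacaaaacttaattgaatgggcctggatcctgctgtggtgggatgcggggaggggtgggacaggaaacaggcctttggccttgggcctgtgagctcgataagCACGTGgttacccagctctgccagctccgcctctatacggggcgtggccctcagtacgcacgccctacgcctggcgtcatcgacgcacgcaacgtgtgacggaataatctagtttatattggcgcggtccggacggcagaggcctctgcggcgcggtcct
Nme1: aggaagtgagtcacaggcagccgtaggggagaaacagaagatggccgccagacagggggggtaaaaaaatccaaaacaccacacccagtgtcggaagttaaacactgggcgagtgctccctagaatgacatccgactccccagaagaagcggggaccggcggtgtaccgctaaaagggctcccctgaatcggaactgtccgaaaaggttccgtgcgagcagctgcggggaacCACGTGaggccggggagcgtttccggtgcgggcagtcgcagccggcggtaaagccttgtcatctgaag

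Of the 4 purine salvage and breakdown genes, 3 rose and 0 fell, where 33.2% and 34.2% of all tested genes did. Ada (chromosome 2, 163726571 to 163750239), which deaminates adenosine and whose loss in humans causes severe immunodeficiency, had 19.0, 20.9 and 19.3 CPM in mLN against 8.71, 8.58 and 8.73 CPM in uLN. The groups stood well apart, with a 2.27-fold rise (log2 change of 1.19 ± 0.08 (SE), adjusted p = 5.78e-07). Aprt, which rebuilds AMP from adenine, had 25.4, 24.9 and 30.5 CPM in mLN against 14.7, 15.7 and 15.0 CPM in uLN, a 1.78-fold rise (adjusted p = 1.83e-05). Hprt, which salvages hypoxanthine and guanine, rose by 0.31 on the log2 scale (adjusted p = 0.00133). Pnp, which splits inosine and guanosine, was not called, with a 95% interval of -0.37 to -0.0027, an adjusted p of 0.0677 and overlapping groups. It was called lower in mLN with no expression filter, and without mLN replicate 2 or uLN replicate 2. Of the 50-base stretches of Pnp, 25.2% occur in transcripts of other genes, the related gene Pnp2 and Gm49342. The latter is annotated over 18.0% of the exon bases of Pnp on the same strand. Pnp2 had at most 19 reads in a library, and Gm49342 was not among the counted genes under that name. The part of such reads in the level of Pnp was not tested. Summed, the 4 genes reached 122, 129 and 132 CPM in mLN and 95.1, 95.9 and 101 CPM in uLN.

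The enzymes that build UMP fell together. Cad (chromosome 5, 31054620 to 31078479), which carries the opening activities of the pathway, had 21.7, 24.2 and 15.0 CPM in mLN against 32.5, 32.8 and 32.4 CPM in uLN. The level of mLN replicate 3 was lowest, and all mLN libraries were below all uLN libraries (log2 change of -0.68 ± 0.14 (SE), adjusted p = 0.00123). Dhodh (chromosome 8, 109593244 to 109608699), the step at the inner mitochondrial membrane that feeds electrons to ubiquinone, had 6.13, 6.78 and 3.73 CPM in mLN against 10.3, 11.2 and 9.02 CPM in uLN. It fell 1.83-fold (adjusted p = 0.00221), again most in mLN replicate 3, and without that library the log2 change was -0.65. Umps (chromosome 16, 33954782 to 33967038), which completes UMP, had 8.76, 8.28 and 8.21 CPM in mLN against 13.1, 12.7 and 12.7 CPM in uLN, a 1.52-fold fall (adjusted p = 0.000146) with little spread in either group, whose call was lost with the coefficient of variation set to 0.2. Against a 1.5-fold change the calls of Cad, Dhodh, Umps and Ctps were lost. For Cad without mLN replicate 3 the log2 change was -0.50 and the call was kept. Beyond UMP, the CTP synthetases did not fall. Ctps had 3.998, 5.06 and 2.81 CPM in mLN against 2.18, 2.31 and 2.18 CPM in uLN, a 1.78-fold rise (adjusted p = 0.00971) on few reads, 49 to 91 in mLN and 38 to 41 in uLN. Its log2 change was 0.83, against 0.61 without mLN replicate 2 (edgeR adjusted p = 0.048, close to the threshold) and 1.03 without mLN replicate 3. Ctps2 had 72.1, 70.4 and 79.8 CPM in mLN and 68.5, 64.6 and 69.1 CPM in uLN and was not called (log2 change of 0.14, adjusted p = 0.064), but it was called higher under each of the 3 other scalings and without mLN replicate 2. Per kilobase, Ctps2 was at 22.1 CPM per kb in mLN and 20.1 CPM per kb in uLN, far above Ctps, at 1.46 and 0.823 CPM per kb.

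Among the other nucleoside kinases, Dck (chromosome 5, 88765013 to 88783277), which phosphorylates deoxycytidine and purine deoxynucleosides, had 23.9, 24.8 and 29.1 CPM in mLN against 8.14, 8.75 and 9.71 CPM in uLN. That is a 2.92-fold rise without overlap (log2 change of 1.55 ± 0.10 (SE), adjusted p = 4.77e-07). Tk2, the mitochondrial thymidine kinase, had 137, 138 and 127 CPM in mLN and 110.5, 108 and 114 CPM in uLN and rose by 0.28 on the log2 scale (adjusted p = 0.000604). Tk1, the cytosolic form of S phase cells, was scarce at 2.79, 2.39 and 2.30 CPM in mLN and 1.72, 2.43 and 2.24 CPM in uLN. It overlapped between groups and was not called, with an interval of -0.26 to 0.71.

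The nucleoside diphosphate kinases, which charge diphosphates to triphosphates, fell. Nme2 had 17.03, 20.2 and 19.9 CPM in mLN against 37.9, 39.4 and 42.2 CPM in uLN, a 2.09-fold fall and the largest among the 40 genes (log2 change of -1.06 ± 0.08 (SE), adjusted p = 1.28e-06). Nme1 had 18.8, 20.4 and 18.3 CPM in mLN and 24.5, 26.8 and 24.9 CPM in uLN and fell by 0.41 on the log2 scale (adjusted p = 0.000574). In mLN the pair reached nearly equal CPM, while in uLN Nme2 stood above Nme1 in each library. The genes lie in a row on chromosome 11 (Nme1 from 93958925 to 93968272, Nme2 from 93949814 to 93956256), and the annotation holds a read-through gene, Gm20390, that covers 48.9% of the exon bases of Nme2 and 12.5% of those of Nme1, so reads there could belong to either gene. This gene was not analysed here, the counts of Nme1 and Nme2 were whole in all 6 libraries, and the part of the read-through in their levels was not tested. Cmpk1, the kinase for UMP and CMP, rose by 0.21 on the log2 scale (adjusted p = 0.00246), and Guk1, the GMP kinase, was not called (interval of -0.43 to 0.12).

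The genes of dNTP supply split. Rrm2 (chromosome 12, 24708254 to 24714146), the S phase partner subunit of ribonucleotide reductase, had 3.45, 4.34 and 5.40 CPM in mLN against 0.516, 0.395 and 0.632 CPM in uLN. These were 63, 78 and 94 reads in mLN and 9, 7 and 11 reads in uLN. It passed the filter on low counts through its mLN libraries. The size of its rise is therefore known only roughly, with an interval of 2.45 to 3.71 on the log2 scale. Rrm1, the catalytic subunit, had 24.9 ± 1.27 CPM in mLN and 31.5 ± 1.24 CPM in uLN (SD, n = 3 each) and fell by 0.34 (adjusted p = 0.00113). Rrm2b, the partner subunit used outside S phase, had 63.3, 60.3 and 64.8 CPM in mLN and 70.3, 61.3 and 63.6 CPM in uLN and was not called (interval of -0.19 to 0.09). Even after its rise, Rrm2 made up 6.52% ± 1.27 of the CPM of Rrm2 and Rrm2b in mLN, against 0.784% ± 0.179 in uLN (SD, n = 3 each). Samhd1 (chromosome 2, 157097534 to 157135096), which breaks dNTPs down and restricts retroviruses, had 232, 225 and 255 CPM in mLN against 135, 138 and 141 CPM in uLN. It rose 1.72-fold (log2 change of 0.78 ± 0.05 (SE), adjusted p = 6.22e-07), and all mLN libraries were higher. Tyms, which makes thymidylate, fell by 0.15 (adjusted p = 0.0267) and Dut, which clears dUTP, rose by 0.34 on the log2 scale (adjusted p = 0.0375). Both calls were lost in DESeq2 and without uLN replicate 2 or 3. That of Tyms was also lost with total counts only and without mLN replicate 1, and that of Dut with no expression filter and without uLN replicate 1 or mLN replicate 2.

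Beside these genes, 1 of 10 S phase and proliferation markers rose, 5 fell and 4 were not called. Of all tested genes 33.2% rose and 34.2% fell, 67.4% either way. Top2a, the topoisomerase of dividing cells, had 13.3, 15.6 and 20.1 CPM in mLN against 5.16, 4.85 and 4.83 CPM in uLN and rose 3.29-fold (adjusted p = 4.23e-06). Mcm5, a helicase subunit, fell 5.05-fold and Pcna, the sliding clamp, 1.86-fold. Mki67, a marker of cycling cells, was at 6.33 ± 0.633 CPM in mLN and 5.19 ± 0.264 CPM in uLN (SD, n = 3 each) and was not called (log2 change of 0.28, adjusted p = 0.0934).

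**Figure D3:**
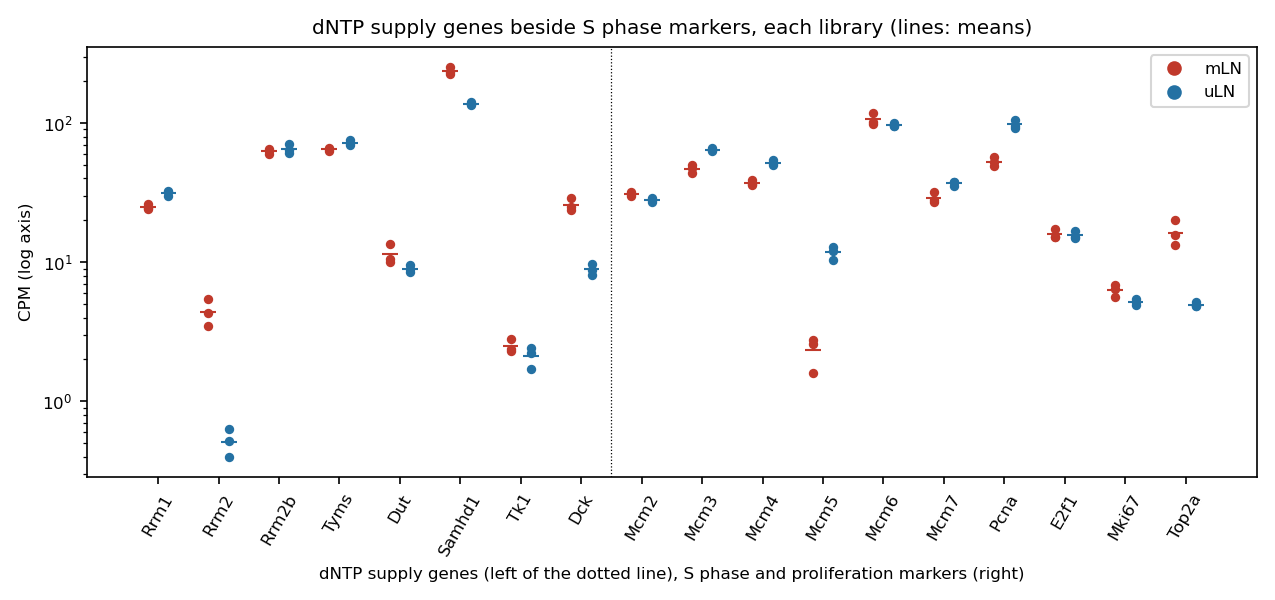
CPM on a log axis in each mLN and uLN library for dNTP supply genes, left of the dotted line, and for 10 S phase and proliferation markers, right of it, with lines at the group means. Rrm2, Dck and Samhd1 are higher in all 3 mLN libraries, while Mcm5 and Pcna are lower there.

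Of the 3 folate genes among the 40, 1 fell and 2 were not called, where 34.2% of all tested genes fell and 33.2% rose. Mthfd1, the cytosolic enzyme with several activities that interconverts folate forms, had 6.13, 6.005 and 4.48 CPM in mLN and 7.74, 7.67 and 8.79 CPM in uLN and fell by 0.54 on the log2 scale (adjusted p = 0.00802), with its lowest level in mLN replicate 3. Mthfd1l, the mitochondrial formate producer, was not called (interval of -0.11 to 0.56). Shmt1, which takes a carbon from serine in the cytosol, had 1.75, 1.67 and 0.976 CPM in mLN and 1.66, 3.22 and 1.55 CPM in uLN. It was not called, with the wide interval of -1.31 to 0.22, and its log2 change was -0.54 with all libraries and -0.13 without uLN replicate 2, the library with the highest level.

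**Figure D4:**
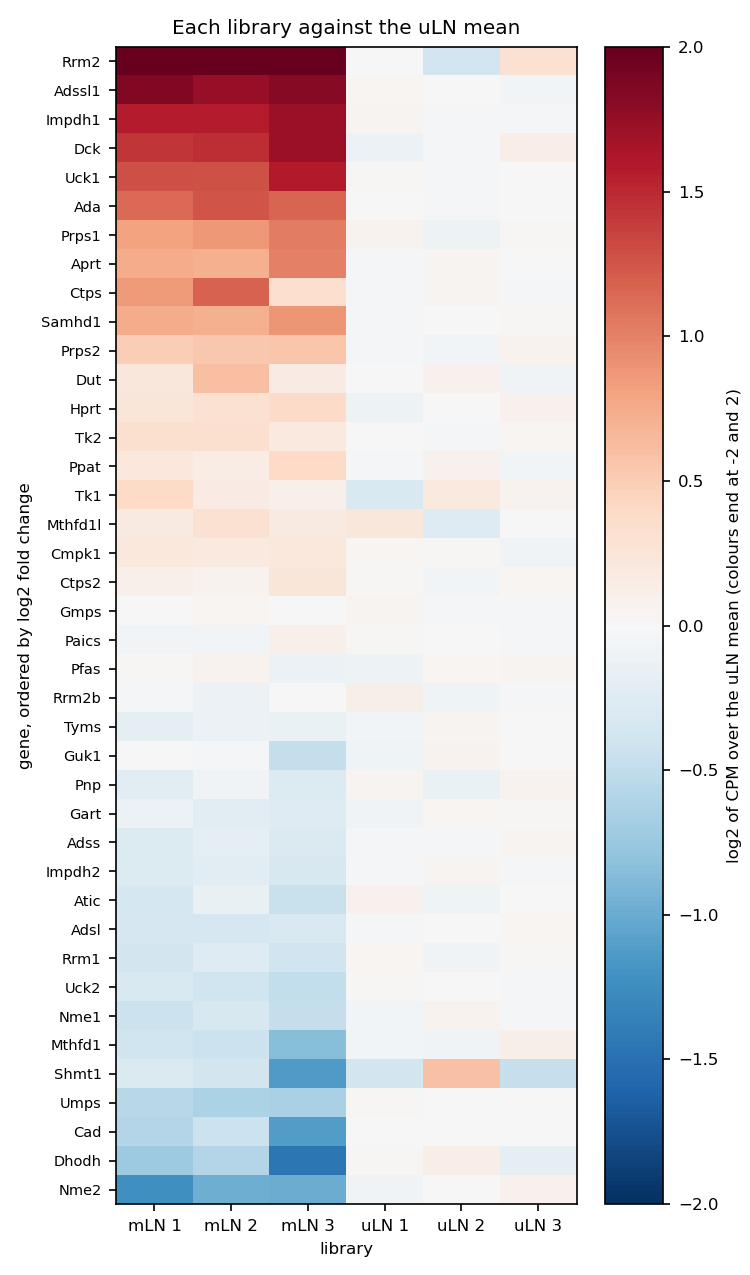
Log2 of the CPM of each of the 40 genes over its uLN mean, in each mLN and uLN library, ordered by fold change from Rrm2 at the top to Nme2 at the bottom. The 3 mLN libraries share the direction for the large changes, and Cad, Dhodh and Ctps are lowest in mLN replicate 3 among the mLN libraries.

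Genes of the same pathways outside the 40 are given for comparison. In purine interconversion and breakdown, 7 of 25 tested genes rose, 12 fell and 6 were not called, where 33.2% of all tested genes rose and 34.2% fell. Gda, which deaminates guanine, had 35.1, 35.7 and 42.1 CPM in mLN against 4.13, 3.78 and 3.85 CPM in uLN, a 9.59-fold rise (adjusted p = 4.75e-09) in all 3 libraries. Ak4, a mitochondrial adenylate kinase named here after its values were seen, had 6.41, 5.23 and 7.98 CPM in mLN against 0.9746, 0.282 and 0.575 CPM in uLN. With 17, 5 and 10 reads in uLN it passed the filter on low counts through its mLN libraries, and the size of its difference is known only roughly. The nucleotidases Nt5c and Nt5m, which act on deoxynucleotides in the cytosol and in mitochondria, fell 2.52-fold and 2.40-fold.

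In pyrimidine interconversion and breakdown, 1 of 12 tested genes rose, 6 fell and 5 were not called. For this list and the next, the shares over all tested genes were again 33.2% risen and 34.2% fallen. Dctpp1, a pyrophosphatase for modified dCTP, rose 1.61-fold (adjusted p = 0.00025). Dtymk, the thymidylate kinase, had 10.7 ± 1.59 CPM in mLN and 20.4 ± 1.40 CPM in uLN (SD, n = 3 each) and fell 1.91-fold (adjusted p = 2.9e-05), and Nme7, a kinase-like protein of cilia and centrosomes, fell 2.06-fold. In the folate, serine and glycine list, 7 of 22 rose, 7 fell and 8 were not called. Amt, a protein of the glycine cleavage system, rose 2.62-fold (adjusted p = 5.15e-06) and Psat1, which makes the serine precursor, 1.64-fold (adjusted p = 0.000135). Psph, the last enzyme of serine synthesis, fell 1.72-fold (adjusted p = 0.000123), and Fpgs, which adds glutamates that hold folates in the cell, fell 2.23-fold (adjusted p = 6.41e-05). The median log2 fold changes of the 3 lists were -0.25, -0.45 and 0.01, beside -0.01 for all tested genes.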

How the data were processed

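RNA sequencing of lymph-node mast cells was compared over 3 mLN and 3 uLN libraries, grouped by their labels. The deposited file holds estimated counts per gene and library, which the authors made with cutadapt, FastQC, TopHat and the build GRCm38, per the submitters' processing notes. The counter, its use of strand and all versions are not stated there. Between 32.2% and 32.8% of values per library were not whole and all were rounded. Of 17891 rows, 1 named no gene and was left out, which left 17890 genes. A total of 5184 genes fell under edgeR's filterByExpr and 12706 were tested.

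Log2 fold changes (mLN over uLN) come from edgeR 4.0.16 (R 4.3.3) with TMM scaling and the quasi-likelihood test, with Benjamini-Hochberg adjustment and intervals of 95%. A gene was called under an adjusted p of 0.05. The fit was run on simulated counts with known changes. Far fewer genes changed there than were called in the data, so that run does not check the scaling or the false calls here. Isozyme pairs were compared as log2 ratios with 0.5 reads added, by exact permutation over libraries. Alternatives used DESeq2 1.42.0, limma 3.58.1, other scalings, no filter, a fixed coefficient of variation, a 1.5-fold threshold, a replicate block and each library left out.

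All 40 genes could be named. Of each further list, the 2 largest called rises and falls at a mean of at least 5 CPM were named. A result that this rule would name is not reported here. The 40 genes and the lists were chosen with earlier results of these data known. Exon overlaps, transcript lengths and shared stretches of 50 bases come from GENCODE M21, and gene positions and promoters from RefSeq on GRCm38.p6. Intervals cover the spread between libraries, and counts of a few reads are the least precise.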

Additional observations from a re-analysis of the deposited data

How the results depend on the processing

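Of the 15 settings tried, 2 were stricter tests. In the other 13 settings 26 of the 30 calls among the 40 genes were kept, and those of Ppat, Gart, Tyms and Dut were lost under some. With the coefficient of variation set to 0.2, 2147 genes were called higher and 1913 lower in mLN, and 10 and 3 of the 40, with 17 calls lost. Tested against a 1.5-fold change with glmTreat, 1497 were higher and 1169 lower, and 9 and 1 of the 40, with 20 calls lost. Both lists of lost calls hold Impdh2, Adss, Uck2, Umps, Prps2, Hprt, Tk2, Cmpk1, Nme1 and Rrm1. They also share Adsl, Atic, Gart, Ppat, Tyms, Dut and Mthfd1, and the second list adds Cad, Dhodh and Ctps. Both tests ask for more than the main test by construction. With each library left out, 3853 to 4403 genes were higher and 4015 to 4492 lower, and 14 to 16 and 12 to 14 of the 40.

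Changes near 0 turned sign. Pfas was at 0.0057 with RLE and upper-quartile scaling, 0.021 with total counts and 0.0056 in DESeq2, and from -0.058 to 0.052 with a library left out. Paics was at -0.025 with no filter, -0.00014 in limma-voom and from -0.0501 to 0.029 with a library left out. Gmps was at -0.017 with no filter and from -0.0084 to 0.034, and Rrm2b ran from -0.092 to 0.0020, with a library left out. The Tk1 to Tk2 log2 ratio difference ran from -0.19 to 0.079 with a library left out. Prps1 was at -0.12 when summed with Prps1l3, an alternative chosen after seeing the data. The cause of these changes of sign was not tested.

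Samples of the same number did not deviate together (correlations of 0.025, -0.15 and -0.013), and those of different numbers ran from -0.16 to 0.185. With 3 libraries in each group this cannot show whether the numbers pair the samples, and the labels do not say. With the replicate block, 4124 genes were higher and 4262 lower, and 15 and 14 of the 40, with only Ppat lost. Low depth limits Rrm2, Ctps, Tk1 and Shmt1.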

Other observations

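Of the 6 nucleoside transporters listed, 4 were tested, of which 1 rose, 1 fell and 2 were not called. Of all tested genes 33.2% rose and 34.2% fell. Slc29a1, the main equilibrative carrier at the cell surface, had 68.5, 66.7 and 63.6 CPM in mLN against 43.4, 45.3 and 45.2 CPM in uLN, a 1.49-fold rise without overlap (edgeR adjusted p = 5.02e-06). Slc29a3, the lysosomal carrier, had 20.3, 21.0 and 17.5 CPM in mLN against 23.8, 24.5 and 26.2 CPM in uLN, a 1.26-fold fall (edgeR adjusted p = 0.00434).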
